A study of Rattus norvegicus with 16 samples.

Results

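The genes described here encode receptors, bridging molecules and adaptors through which phagocytes find and swallow dead cells. They were chosen by gene name for their known roles, by a rule that used no value, but with earlier results of these data known. All 10 were on the array, each with 1 transcript cluster, out of 20667 distinct gene symbols. The members were the receptor tyrosine kinases Mertk, Axl and Tyro3, their ligands Gas6 and Pros1, the lipid receptor Timd4, the bridging protein Mfge8 with the integrin subunit Itgav, and the signalling pair Elmo1 and Dock1.

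A dying cell exposes phosphatidylserine, a lipid that healthy cells keep on the inner face of their membrane. Phagocytes bind it directly, through receptors such as TIM-4 (Timd4), or through soluble bridges: Gas6 and protein S (Pros1) link it to the TAM kinases Tyro3, Axl and Mertk, and MFG-E8 (Mfge8) links it to integrins that contain the alpha V subunit. Several of these receptors signal through ELMO1 and DOCK1, which activate the small GTPase Rac and so drive the membrane around the corpse. Most thymocytes die in the thymus without leaving it, and splenic macrophages remove aged blood cells, so both organs clear many dead cells. These roles are known mainly from mouse and human cells.

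Male Lewis rats, an inbred strain, gave the thymi and spleens, and the cells were sorted as live (propidium iodide negative) CD45+ cells. Conventional type 1 dendritic cells (cDC1) were MHCII+CD103+CD172a-, and type 2 cells (cDC2) were MHCII+CD103+CD172a+. A further population that resembles dendritic cells was MHCII+CD103-CD45R-CD172a+ and is called CD103- cells here. Macrophages were CD45R- cells that bound HIS36, an antibody against Cd163 of the rat. The 4 populations of 2 organs made 8 groups of 2 arrays, with no treatment in any of them. Before the sort, splenic dendritic cells were enriched on a density gradient and thymic ones with beads against MHC class II, so organ and isolation cannot be told apart for the dendritic populations. Macrophages of both organs were enriched with CD11b/c beads, so macrophage identity and isolation cannot be told apart either. Total RNA was read on Clariom S rat arrays, which give a signal per transcript cluster. The labels do not say whether the arrays of a group came from separate animals, so p-values measure the spread between these arrays, which may be technical, and 2 arrays a group limit every estimate.

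Signals are given on the log2 scale as the authors deposited them. Levels of different genes are not compared, because a probe signal also depends on the probe. As a background level, the 95th percentile of 1158 olfactory receptor clusters was used, 5.79, and differences from groups with a mean under it are given as a bound ("at least"). Replicate arrays differed by a root mean square of 0.373 to 0.457. The sort markers followed the labels: Itgae, which encodes CD103, had group means of 13.27 to 14.48 in cDC1 and cDC2 and 6.02 to 9.02 in the other groups, and Cd163 had 16.56 and 15.97 in thymic and splenic macrophages against 11.34 in thymic cDC2 and 8.05 or less elsewhere. Markers of other cell types were above background in some sorts. Whether the sorted cells made these transcripts themselves was not tested. Of 9 neutrophil markers, 8 were above background in thymic and 7 in splenic macrophages, against 0 to 4 in the dendritic groups, and S100a9 reached 18.03 and 17.38. Of 8 erythroid markers, 7 were above background in splenic macrophages and 0 to 2 elsewhere. In splenic macrophages 6 of 6 NK markers were above background, against 0 or 1 elsewhere. B cell markers were above background in all groups (5 to 8 of 8), and the highest group differed by marker. Cd79a was highest in splenic macrophages (11.90), followed by thymic cDC1 (10.79). Blk was highest in thymic cDC1 (13.25) and Cd22 in splenic cDC2 (14.16). The cDC1 marker Xcr1 reached 10.25 and 11.54 in thymic and splenic macrophages, against 16.65 and 17.50 in cDC1. Of 14 epithelial and stromal markers, 7 were above background in thymic macrophages and 3 to 6 elsewhere, and the stromal gene Dcn was at 10.59 there and below background in the other groups. Of 8 endothelial markers, 4 to 6 were above background in each group. In bulk samples, fewer cells of a type and less RNA per cell cannot be told apart. The part of other cell types in the members' values was not tested.

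**Figure D1:**
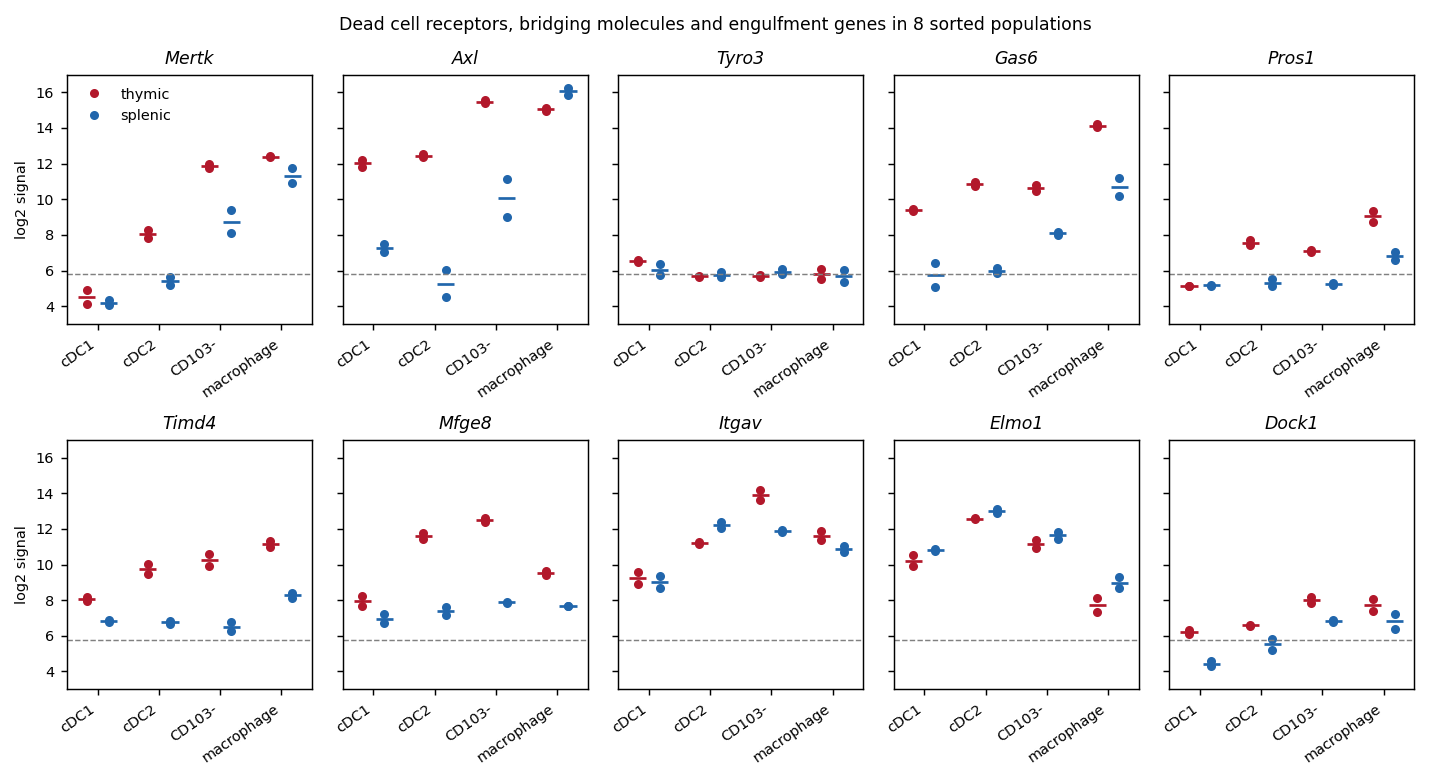
Log2 signal (vertical axis) of the 10 genes in cDC1, cDC2, CD103- cells and macrophages. Each point is 1 array, each bar the mean of 2 arrays, red is thymus, blue is spleen, and the dashed line is the background level of 5.79. Mertk, Axl and Gas6 span the widest ranges, Tyro3 stays near the dashed line, and Elmo1 is lowest in macrophages.

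Mertk was high in macrophages of both organs and in thymic CD103- cells. It was intermediate in splenic CD103- cells and thymic cDC2, and below background in cDC1 and splenic cDC2. In the thymus its signal was 12.41 and 12.38 on the macrophage arrays, 11.77 and 11.96 on the CD103- arrays, 8.28 and 7.82 on the cDC2 arrays and 4.13 and 4.90 on the cDC1 arrays. In the spleen it was 11.74 and 10.89 in macrophages, 8.08 and 9.42 in CD103- cells, 5.64 and 5.17 in cDC2 and 4.09 and 4.32 in cDC1. No arrays of different populations overlapped within an organ. Across the organs, splenic macrophages stood within the replicate spread of thymic CD103- cells, and splenic CD103- cells within that of thymic cDC2.

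Against cDC2 of the same organ, Mertk was higher in thymic macrophages by 4.34 ± 0.38 (SE, limma adjusted p = 2.39e-08) and in splenic macrophages by at least 5.53 (adjusted p = 5.85e-10). In CD103- cells it was higher than in cDC2 by 3.81 ± 0.38 in the thymus (adjusted p = 1.48e-06) and by at least 2.96 in the spleen (adjusted p = 6.55e-06). The groups did not overlap in either organ. Thymic macrophages and thymic CD103- cells did not pass the test against each other (0.53, 95% interval -0.26 to 1.32, adjusted p = 0.305), while splenic macrophages exceeded splenic CD103- cells by 2.57 ± 0.38 (adjusted p = 2.17e-05). On the linear scale, Mertk in thymic CD103- cells was 69.3% of the thymic macrophage signal, and the macrophage sort marker Cd163 was 0.274% of it.

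Axl, a TAM kinase that binds Gas6, had the widest range of the 10 genes. Its signal on the thymic arrays was 15.10 and 14.98 in macrophages, 15.40 and 15.57 in CD103- cells, 12.52 and 12.38 in cDC2 and 12.22 and 11.81 in cDC1. On the splenic arrays it was 16.27 and 15.83 in macrophages, 9.03 and 11.15 in CD103- cells, 4.49 and 6.03 in cDC2 and 7.47 and 7.06 in cDC1. All thymic populations were thus well above background. In the spleen, by contrast, macrophages stood far above the dendritic populations and the mean of cDC2 was below background. The 2 splenic CD103- arrays differed by more than 2 log2 units, as did those of no other group and member, so the level in that group is poorly fixed.

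In the spleen, macrophages exceeded cDC2 in Axl by at least 10.26 (limma adjusted p = 1.27e-11) and CD103- cells by 5.96 ± 0.50 (adjusted p = 2.99e-08). In the thymus, macrophages exceeded cDC2 by 2.59 ± 0.50 (adjusted p = 0.000315). Thymic macrophages and thymic CD103- cells, whose arrays did not overlap, did not pass the test (-0.44, 95% interval -1.50 to 0.61, adjusted p = 0.543). CD103- cells exceeded cDC2 by 3.04 ± 0.50 in the thymus (adjusted p = 0.000402) and by at least 4.30 in the spleen (adjusted p = 2.66e-06). Splenic cDC1, which lay above splenic cDC2, were lower than splenic CD103- cells by a margin that depended on the array: CD103- cells exceeded them by 2.83 ± 0.50 (adjusted p = 0.000414), and by 1.77 without splenic CD103- array 2 and 3.89 without array 1.

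Tyro3, the third TAM kinase, stayed close to background everywhere. Its lowest array was 5.37, in splenic macrophages, and its highest was 6.60, in thymic cDC1. Group means lay between 5.67 in thymic cDC2 and 6.55 in thymic cDC1, and each neighbour in that order was within the replicate spread of the next. Thymic cDC1, at 6.50 and 6.60, was the only group to differ by the test from others: cDC2 and CD103- cells were below it by a difference of -0.76 or beyond (limma adjusted p = 0.0352 and 0.0331), and macrophages by one of -0.74 ± 0.27 (adjusted p = 0.0324). All 3 calls were lost when single arrays were left out, with adjusted p up to 0.172, 0.161 and 0.284. Either cDC1 array did this in each case, as did either array of cDC2 and of CD103- cells, and macrophage array 1.

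Gas6, the vitamin K-dependent ligand of all 3 TAM kinases, was highest in thymic macrophages. In the thymus the arrays read 14.03 and 14.23 in macrophages, 10.44 and 10.78 in CD103- cells, 10.97 and 10.77 in cDC2 and 9.45 and 9.33 in cDC1. In the spleen they read 11.19 and 10.20 in macrophages, 8.18 and 8.0 in CD103- cells, 5.86 and 6.14 in cDC2 and 6.40 and 5.08 in cDC1. The thymic macrophage arrays stood above all others with a wide gap. Thymic cDC2, splenic macrophages and thymic CD103- cells could not be ordered within their spread, and splenic cDC1 and cDC2 lay about the background level.

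Thymic macrophages exceeded thymic cDC2 in Gas6 by 3.26 ± 0.35 (limma adjusted p = 3.98e-07), and splenic macrophages exceeded splenic cDC2 by 4.69 ± 0.35 (adjusted p = 4.66e-09). Splenic CD103- cells were above splenic cDC2 by 2.09 ± 0.35 (adjusted p = 0.000553), but in the thymus that difference was -0.26 with a 95% interval of -1.0 to 0.48 (adjusted p = 0.788). Thymic cDC1 were the lowest thymic population. They fell short of cDC2 by 1.48 ± 0.35 (adjusted p = 0.00695) and of CD103- cells by 1.22 ± 0.35 (adjusted p = 0.0199), and both calls were lost without thymic cDC1 array 2, with adjusted p of up to 0.0642 and 0.149 over single arrays left out. Thymic cDC2 array 1 also ended the call against cDC2, and thymic cDC1 array 1 and CD103- array 2 that against CD103- cells.

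Pros1, the second soluble TAM ligand and also an anticoagulant of plasma, was measured above background in thymic cells other than cDC1 and in splenic macrophages. The chromosome number in its cluster's identifier differs from that of the RefSeq locus (chromosome 11), unlike for the other members. The reason was not tested, and all Pros1 values rest on this cluster. Thymic arrays read 8.75 and 9.33 in macrophages, 7.15 and 7.05 in CD103- cells, 7.42 and 7.69 in cDC2 and 5.15 and 5.15 in cDC1. Splenic macrophages read 7.03 and 6.61, and the other 6 splenic arrays lay between 5.12 and 5.50. Splenic dendritic populations and thymic cDC1 were therefore not distinguishable from background or from each other. Macrophages exceeded cDC2 by 1.48 ± 0.24 in the thymus (limma adjusted p = 4.48e-05) and by at least 1.03 in the spleen (adjusted p = 4.48e-05). Thymic cDC2 and CD103- cells exceeded thymic cDC1 by at least 1.76 (adjusted p = 7.96e-07) and 1.31 (adjusted p = 6.39e-06).

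Timd4, which binds phosphatidylserine itself and tethers dead cells, was higher in thymic than in splenic cells. Thymic arrays read 11.31 and 11.01 in macrophages, 9.91 and 10.59 in CD103- cells, 9.46 and 10.04 in cDC2 and 8.19 and 7.94 in cDC1. Splenic arrays read 8.42 and 8.12 in macrophages, 6.26 and 6.76 in CD103- cells, 6.82 and 6.68 in cDC2 and 6.77 and 6.88 in cDC1. Splenic macrophages lay within the spread of thymic cDC1, the lowest thymic group, and the splenic dendritic populations did not separate from each other. Thymic CD103- cells and thymic cDC2 overlapped as well (difference 0.50, 95% interval -0.07 to 1.07, adjusted p = 0.326).

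Macrophages exceeded cDC2 in Timd4 by similar amounts in the organs, 1.41 ± 0.27 in the thymus (limma adjusted p = 0.000294) and 1.52 ± 0.27 in the spleen (adjusted p = 0.000152). They exceeded CD103- cells by 0.91 ± 0.27 in the thymus (adjusted p = 0.0121), a call lost without array 1 of either group (adjusted p up to 0.192), and by 1.76 ± 0.27 in the spleen (adjusted p = 3.87e-05). On the linear scale, thymic cDC2 had 37.6% and thymic CD103- cells 53.2% of the Timd4 signal of thymic macrophages. The corresponding figures for Cd163 were 2.68% and 0.274%. Of 12 macrophage markers, 10 were above background in the cDC2 and 11 in the CD103- cells of the thymus. Vsig4 was below it in both and Spic in cDC2.

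Mfge8 broke the pattern of the ligands: its highest signals were in thymic CD103- cells and cDC2 and not in macrophages. Thymic arrays read 12.61 and 12.38 in CD103- cells, 11.76 and 11.41 in cDC2, 9.43 and 9.63 in macrophages and 8.21 and 7.67 in cDC1. Splenic arrays lay in a narrow band, with 7.85 and 7.92 in CD103- cells, 7.65 and 7.69 in macrophages, 7.64 and 7.17 in cDC2 and 7.22 and 6.72 in cDC1. No thymic population overlapped another, and thymic cDC1 overlapped the splenic band. Thymic macrophages were below thymic cDC2 (-2.05 ± 0.25, limma adjusted p = 2.04e-06) and below thymic CD103- cells (-2.96 ± 0.25, adjusted p = 3.44e-08).

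Within the spleen, Mfge8 in macrophages differed from cDC2 by 0.26 (95% interval -0.27 to 0.80, adjusted p = 0.436) and from CD103- cells by -0.21 (95% interval -0.75 to 0.32, adjusted p = 0.539). Thymic CD103- cells exceeded cDC2 by 0.91 ± 0.25 (adjusted p = 0.0259), and the call was lost without cDC2 array 2 or either CD103- array (adjusted p up to 0.224). Splenic cDC1 were the lowest group. They were below macrophages by 0.70 ± 0.25 (adjusted p = 0.0324) and below CD103- cells by 0.92 ± 0.25 (adjusted p = 0.015). Neither call was stable: both were lost without cDC1 array 2 or either array of the other group (adjusted p up to 0.268 and 0.183), and with the 4 arrays compared fitted alone (0.0505 and 0.0515), and quantile normalization gave 0.242 for the macrophage difference.

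Itgav, the alpha V chain of the integrins that MFG-E8 binds, was highest in thymic CD103- cells. Its arrays in the thymus read 14.17 and 13.60 in CD103- cells, 11.88 and 11.36 in macrophages, 11.27 and 11.18 in cDC2 and 9.59 and 8.92 in cDC1. In the spleen they read 12.03 and 12.40 in cDC2, 11.94 and 11.81 in CD103- cells, 11.04 and 10.72 in macrophages and 9.36 and 8.67 in cDC1. Thymic CD103- cells stood above all other arrays. cDC1 of both organs stood below the other populations and overlapped each other. CD103- cells stood above cDC2 in the thymus, while in the spleen these populations lay within the replicate spread.

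Thymic CD103- cells exceeded thymic cDC2 in Itgav by 2.66 ± 0.29 (limma adjusted p = 5.58e-06), and thymic macrophages were below them (-2.27 ± 0.29, adjusted p = 5.84e-06). In the spleen, CD103- cells and cDC2 differed by -0.34 (95% interval -0.96 to 0.28, adjusted p = 0.62). Splenic macrophages were below splenic cDC2 (-1.34 ± 0.29, adjusted p = 0.00115). They were also below splenic CD103- cells (-1.0 ± 0.29, adjusted p = 0.0115), a call lost without CD103- array 1 or macrophage array 2 (adjusted p up to 0.0963). cDC1 were lower than cDC2 in the thymus (1.97 ± 0.29, adjusted p = 9.29e-05) and in the spleen (3.20 ± 0.29, adjusted p = 2.5e-07).

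Elmo1, the adaptor that works with DOCK proteins, was highest in cDC2 and lowest in macrophages of both organs. Thymic arrays read 12.60 and 12.56 in cDC2, 11.37 and 10.93 in CD103- cells, 10.54 and 9.90 in cDC1 and 8.12 and 7.35 in macrophages. Splenic arrays read 13.10 and 12.89 in cDC2, 11.84 and 11.44 in CD103- cells, 10.88 and 10.77 in cDC1 and 9.29 and 8.69 in macrophages. The 4 populations stood in the same order in thymus and spleen, and none of their arrays overlapped within an organ.

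Macrophages were below cDC2 in Elmo1 in the thymus (-4.85 ± 0.29, limma adjusted p = 2.66e-10) and the spleen (-4.01 ± 0.29, adjusted p = 3.65e-09). CD103- cells were below cDC2 as well (-1.43 ± 0.29, adjusted p = 0.00303, and -1.36 ± 0.29, adjusted p = 0.00522). These calls were lost without CD103- array 2 in each organ, and in the spleen also without cDC2 array 1 (adjusted p up to 0.0576 and 0.0727). CD103- cells and cDC1 were closer: the difference was 0.93 ± 0.29 in the thymus (adjusted p = 0.0348), lost without cDC1 array 2 or CD103- array 1 (adjusted p up to 0.343), and 0.81 ± 0.29 in the spleen, which did not pass (adjusted p = 0.0659).

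Dock1, the exchange factor partner of ELMO1, did not share the profile of Elmo1. Thymic arrays read 8.20 and 7.82 in CD103- cells, 8.07 and 7.37 in macrophages, 6.56 and 6.61 in cDC2 and 6.35 and 6.08 in cDC1. Splenic arrays read 6.78 and 6.90 in CD103- cells, 7.22 and 6.39 in macrophages, 5.21 and 5.82 in cDC2 and 4.57 and 4.30 in cDC1. CD103- cells and macrophages overlapped in each organ and lay above both conventional populations, and the means of splenic cDC1 and cDC2 were below background.

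Against cDC2, Dock1 was higher in CD103- cells by 1.42 ± 0.30 in the thymus (limma adjusted p = 0.0035) and by at least 1.05 in the spleen (adjusted p = 0.00694). In macrophages it was higher by 1.13 ± 0.30 in the thymus (adjusted p = 0.00439) and by at least 1.01 in the spleen (adjusted p = 0.00171). Each of these 4 calls depended on single arrays: the thymic CD103- call on CD103- array 1 (adjusted p without it up to 0.0551), the splenic one on cDC2 array 1 and CD103- array 2 (up to 0.108), and the macrophage calls on macrophage array 1 (up to 0.0893 in the thymus and 0.0514 in the spleen).

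Timd4 and Elmo1 had opposite profiles in macrophages, and both of their start regions hold the core letters GGAAGT of ETS factors, a family that includes the myeloid factor PU.1. The windows run from 250 bases before to 50 bases after the RefSeq start (GRCr8) and are shown to let the surroundings of the match be compared. They lie at chr10:31686744-31687043, plus strand, for Timd4 and at chr17:49518110-49518409, minus strand, for Elmo1. Capitals mark the ETS core and, in Timd4, the ETS-IRF composite motif (GGAA followed after 2 bases by GAAA), which begins at the same base and overlaps it.
Timd4: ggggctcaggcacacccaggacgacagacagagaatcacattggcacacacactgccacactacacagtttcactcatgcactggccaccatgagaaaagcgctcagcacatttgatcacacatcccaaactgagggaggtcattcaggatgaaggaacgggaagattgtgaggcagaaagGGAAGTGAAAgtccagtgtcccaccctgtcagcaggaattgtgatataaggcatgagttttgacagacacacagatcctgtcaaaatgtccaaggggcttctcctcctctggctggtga
Elmo1: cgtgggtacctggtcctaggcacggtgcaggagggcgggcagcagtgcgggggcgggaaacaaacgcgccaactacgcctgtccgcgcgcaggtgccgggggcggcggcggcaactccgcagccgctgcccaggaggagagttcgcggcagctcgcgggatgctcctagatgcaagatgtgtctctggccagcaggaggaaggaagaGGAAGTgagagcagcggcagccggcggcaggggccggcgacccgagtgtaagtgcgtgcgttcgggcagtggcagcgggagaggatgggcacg
The core began 69 bases before the Timd4 start and 43 bases before the Elmo1 start. On either strand it was present in 3 of the 10 members (Timd4, Itgav and Elmo1) and in 22.6% of 33469 RefSeq rat promoters of this length. The composite motif, searched on both strands, was in Timd4 and Pros1, 2 of 10, against 2.94% of all promoters. The GC box GGGCGG was in 9 of 10, all but Timd4, against 33.1%, and the AP-1 letters TGACTCA were in 0 of 10, against 4.63%. The Timd4 window was 51.0% G and C, while those of the other 9 members had 63.0% to 81.3%. A match is a description of letters and not a binding site.

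Set together, macrophages exceeded cDC2 in most members in each organ. In the thymus 6 members were higher (Mertk, Axl, Gas6, Pros1, Timd4 and Dock1) and 2 lower (Mfge8 and Elmo1), where 42.9% of 23188 clusters were called in either direction. In the spleen the same 6 were higher and Itgav and Elmo1 were lower, where 42.5% of clusters were called. The median difference of the members was 1.27 for thymic and 1.40 for splenic cells, beside -0.11 and -0.17 over all clusters. Calls in this direction of comparison were common among all clusters, so the counts are to be read against those shares.

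Against cDC1, all 10 members were called in thymic macrophages, 8 higher and 2 lower (Tyro3 and Elmo1), where 43.7% of clusters were called. In splenic macrophages 9 were called, 8 higher and Elmo1 lower, where 43.2% were called. The largest of these differences were in Mertk, at least 6.60 in the thymus, and in Axl, 8.78 ± 0.50 in the spleen (limma adjusted p = 1.36e-10). Against CD103- cells the split was even in the thymus, with Gas6, Pros1 and Timd4 higher and Mfge8, Itgav and Elmo1 lower in macrophages, 6 members where 37.9% of clusters were called. In the spleen 5 members were higher (Mertk, Axl, Gas6, Pros1 and Timd4) and 2 lower (Itgav and Elmo1), where 40.2% were called.

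Compared with cDC2, CD103- cells were higher in Mertk, Axl and Dock1 and lower in Elmo1 in each organ. In the thymus Mfge8 and Itgav were higher as well, 6 members in all, where 10.3% of clusters were called. In the spleen Gas6 was higher as well, 5 members in all, where 9.02% were called. The members' median difference was 0.71 for thymic and 0.33 for splenic cells, and that of all clusters was -0.02 and -0.03. The summed signal of 12 macrophage markers moved the same way: it was 17.25 to 17.30 in thymic CD103- cells against 14.66 to 14.98 in thymic cDC2, and 15.76 to 16.11 against 14.48 to 14.50 in the spleen. Bright genes weigh most in this sum, which is of linear signals. In the thymus Cd163 and Slc40a1 were lower in CD103- cells (8.05 and 9.23) than in cDC2 (11.34 and 9.43). Vsig4 was below background in both groups, and the other markers were higher in CD103- cells. The part of the macrophage markers in these differences was not tested.

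**Figure D2:**
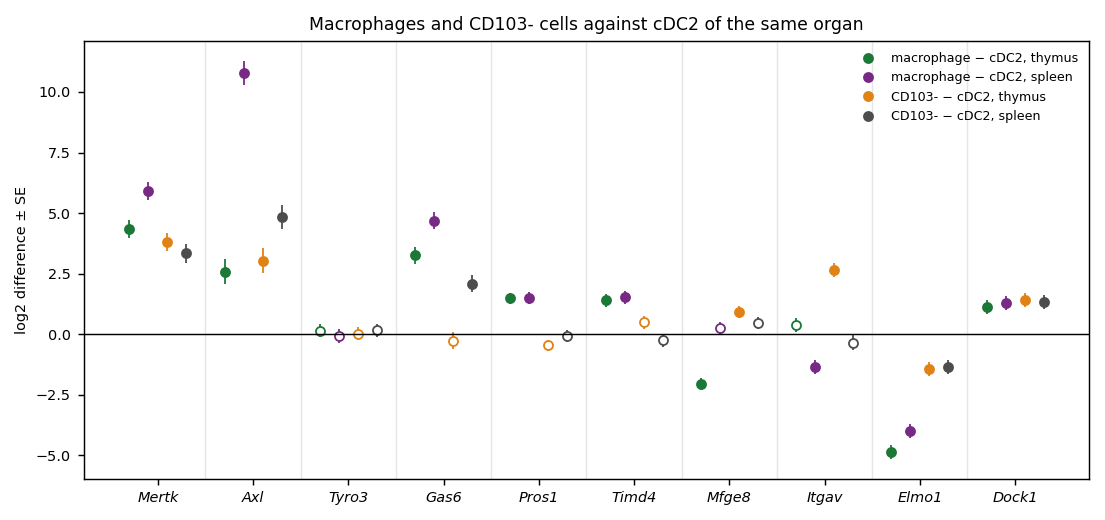
Log2 difference from cDC2 of the same organ with its SE (vertical axis) for each of the 10 genes. Filled points passed limma's adjusted p of 0.05 and open points did not, and points from groups below background are plotted without the bound. Axl in splenic macrophages stands highest and Elmo1 in macrophages lowest.

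Most members were lower in cDC1 than in CD103- cells of the same organ. Thymic CD103- cells differed from thymic cDC1 in all 10 members, 9 higher and Tyro3 lower, where 17.7% of clusters were called. Splenic CD103- cells were higher in 6 (Mertk, Axl, Gas6, Mfge8, Itgav and Dock1), where 18.1% were called. Thymic cDC2 exceeded thymic cDC1 in 7 (Mertk, Gas6, Pros1, Timd4, Mfge8, Itgav and Elmo1) and were lower in Tyro3, 8 members where 13.7% of clusters were called. Splenic cDC2 differed in 5, where 16.1% were called: Itgav and Elmo1 were higher, Axl was lower (-1.47 or beyond, limma adjusted p = 0.00869), and Mertk and Dock1 were called between means that both lay below background.

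The splenic calls on Axl, Mertk and Dock1 rested on single arrays. That on Axl was lost without cDC1 array 1 or cDC2 array 1 (adjusted p up to 0.173), that on Mertk without any of the 4 arrays (up to 0.223) or with array weights (0.0518), and that on Dock1 without array 2 of either group (up to 0.207). The difference in Mfge8 between thymic cDC2 and cDC1, 3.64 ± 0.25 (adjusted p = 8.65e-09), was the largest of a member in that comparison. Mfge8 in thymic CD103- cells exceeded cDC1 by 4.55 ± 0.25 (adjusted p = 2.71e-10).

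Between the organs, Gas6, Timd4 and Mfge8 were higher in the thymus in each population. Dendritic cells of the thymus exceeded those of the spleen in 5 members in cDC1 (Axl, Gas6, Timd4, Mfge8 and Dock1), where 12.1% of clusters were called. cDC2 had 7 members higher in the thymus (Mertk, Axl, Gas6, Pros1, Timd4, Mfge8 and Dock1) and Itgav lower, where 14.6% were called. CD103- cells had 8 higher and 0 lower, every member but Tyro3 and Elmo1, where 12.4% were called. Macrophages had 4 higher (Gas6, Pros1, Timd4 and Mfge8) and Elmo1 lower, where 13.7% were called. Members' medians were 0.74, 2.44, 2.26 and 1.00 in this order of populations, while those of all clusters lay between -0.03 and 0.04.

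**Figure D3:**
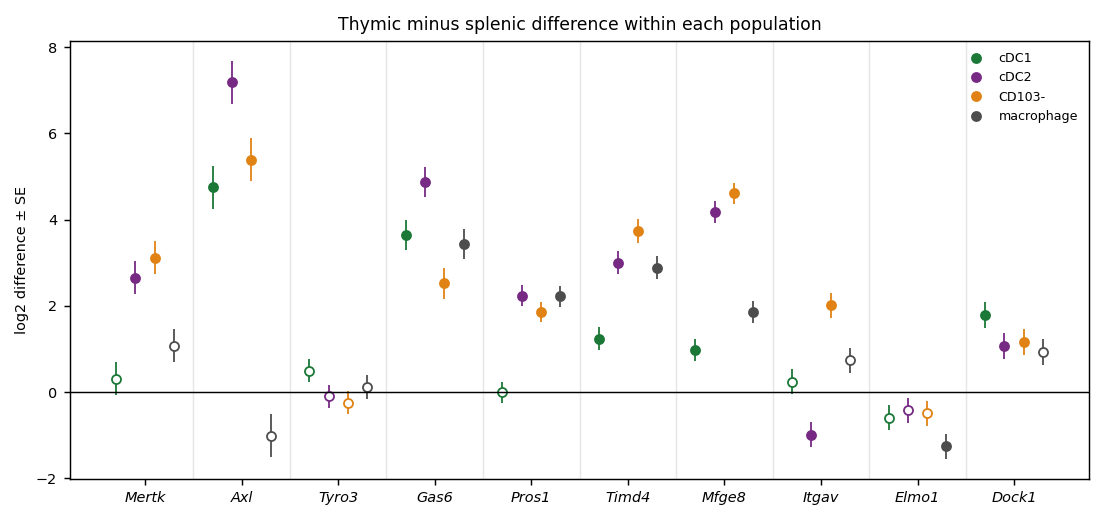
Thymic minus splenic log2 difference with its SE (vertical axis) of each gene in the 4 populations. Filled points passed limma's adjusted p of 0.05. Gas6, Timd4 and Mfge8 are above 0 in all 4 populations and Elmo1 is below 0 in all 4, with the macrophage difference called.

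No other member was called higher in the thymus in all 4 populations. Gas6 was higher by at least 3.60 in cDC1 (limma adjusted p = 9.36e-07), by 4.87 ± 0.35 in cDC2 (1.67e-08), by 2.52 ± 0.35 in CD103- cells (7.68e-05) and by 3.44 ± 0.35 in macrophages (1.53e-06). Timd4 was higher by 1.24 ± 0.27, 3.0 ± 0.27, 3.74 ± 0.27 and 2.89 ± 0.27 (adjusted p = 0.00419, 2.79e-07, 4.53e-08 and 5.54e-07). Mfge8 was higher by 0.97 ± 0.25, 4.18 ± 0.25, 4.61 ± 0.25 and 1.86 ± 0.25 (adjusted p = 0.015, 2.16e-09, 1.53e-09 and 3.89e-05). The cDC1 call on Mfge8 was lost without thymic cDC1 array 1 or splenic cDC1 array 2 (adjusted p up to 0.187) and with the 4 arrays fitted alone (0.0824). These genes encode a soluble TAM ligand, a lipid receptor and a bridge to integrins.

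Axl differed between the organs in each dendritic population, Mertk in cDC2 and CD103- cells, and Tyro3 was called in none. Axl was higher in the thymus by 4.75 ± 0.50 in cDC1 (limma adjusted p = 2.78e-06), by at least 6.66 in cDC2 (1.17e-08) and by 5.39 ± 0.50 in CD103- cells (8.21e-07). In macrophages its difference was -1.01 with a 95% interval of -2.07 to 0.05 (adjusted p = 0.241), and fitting those 4 arrays alone gave 0.0162. Mertk was higher in thymic cDC2 by at least 2.26 (5.4e-05) and in thymic CD103- cells by 3.12 ± 0.38 (1.56e-05). In macrophages Mertk differed by 1.08 (95% interval 0.29 to 1.87, adjusted p = 0.0683), which became 0.0271 with those arrays alone and 0.0397 without splenic macrophage array 1. Pros1 was higher in thymic cDC2 by at least 1.76 (2e-06), in CD103- cells by at least 1.31 (3.07e-05) and in macrophages by 2.22 ± 0.24 (2.69e-06).

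Itgav moved both ways: it was higher in thymic than splenic CD103- cells by 2.01 ± 0.29 (limma adjusted p = 0.000131) and lower in thymic than splenic cDC2 (-0.99 ± 0.29, adjusted p = 0.0295). The cDC2 call was lost without either thymic cDC2 array or splenic cDC2 array 2 (adjusted p up to 0.205). Elmo1 was lower in thymic macrophages (-1.26 ± 0.29, adjusted p = 0.0065), a call lost without thymic array 2 or splenic array 1 (up to 0.135). Dock1 was higher in thymic cDC1 by at least 0.42 (0.000399), in cDC2 by at least 0.79 (0.02) and in CD103- cells by 1.17 ± 0.30 (0.0136). The latter 2 calls were lost without either thymic cDC2 array, splenic cDC2 array 1, thymic CD103- array 1 or either splenic CD103- array (up to 0.222 and 0.126). In macrophages Dock1 differed by 0.92 (0.0504), and it was called without thymic array 2 or splenic array 1 (down to 0.0155).

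Thymocyte and T cell transcripts also differed between the organs. Of 15 such markers, 9 to 13 were above background in the thymic groups and 4 to 6 in the splenic groups, with summed signals of 12.33 to 13.45 and 10.75 to 11.29. Cd3g was below background in every group, and Rag1 was above it in every group. The summed signal of the macrophage markers was higher in thymic than splenic CD103- cells, as given above. In macrophages, however, it was 20.01 to 20.21 in the thymus and 20.49 to 20.55 in the spleen. The part of other cells in the organ differences was not tested.

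Whether a difference between populations depended on the organ was tested directly as the thymic difference minus the splenic one. For macrophages against cDC2, 3 members were called, where 10.4% of clusters were called: Axl (-7.67 or beyond, since splenic cDC2 lay below background, limma adjusted p = 3.91e-07), Mfge8 (-2.32 ± 0.36, 0.000208) and Itgav (1.73 ± 0.42, 0.0104). For CD103- cells against cDC2, 2 were called, where 3.55% were called: Itgav (3.0 ± 0.42, 0.000256) and Gas6 (-2.35 ± 0.50, 0.00955). For macrophages against CD103- cells, a comparison added after the levels were seen, 3 were called, where 6.79% were called: Axl (-6.40 ± 0.71, 1.37e-05), Mfge8 (-2.75 ± 0.36, 7.32e-05) and Mertk (-2.04 ± 0.53, 0.0256). The Axl excess of macrophages over cDC2 was thus larger in the spleen, and an excess over CD103- cells was called only there. Macrophages were below cDC2 and CD103- cells in Mfge8 in the thymus, while neither splenic difference was called.

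For cDC2 against cDC1, 5 members were called, all with a more positive difference in the thymus, where 6.20% of clusters were called. These were Mfge8 (3.21 ± 0.36, limma adjusted p = 1.62e-05), Pros1 (2.25 ± 0.34, 0.000295), Timd4 (1.76 ± 0.38, 0.00761), Mertk (2.33 ± 0.53, 0.0104) and Axl (at least 1.91, 0.049992). For Axl, cDC2 minus cDC1 was 0.43 in the thymus (limma adjusted p = 0.707) and -1.47 or beyond in the spleen. Some of the means behind Mertk and Pros1 were below background on both sides of the comparison, so the sizes of their interactions are uncertain. The excess of Timd4 and Mfge8 in thymic cDC2 over thymic cDC1 was not called in the spleen, where cDC2 minus cDC1 was -0.08 and 0.44 (95% intervals -0.65 to 0.50 and -0.10 to 0.97).

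Single arrays ended several of the organ-dependent calls. The Axl call for cDC2 against cDC1 was lost in 7 of 8 leave-outs, all but splenic cDC2 array 2 (adjusted p up to 0.234), and with eBayes fitted with trend and robust (0.159). The Mertk call for macrophages against CD103- cells was lost in 6 of 8, all but splenic CD103- array 2 and splenic macrophage array 2 (up to 0.138). Mertk for cDC2 against cDC1 was lost without thymic cDC1 array 1, thymic cDC2 array 1 or splenic cDC2 array 2 (up to 0.0617). Itgav for macrophages against cDC2 was lost without splenic cDC2 array 2, thymic macrophage array 1 or splenic macrophage array 2 (up to 0.0617). Gas6 was lost without thymic CD103- array 1 (0.051), and Timd4 without thymic cDC2 array 2 (0.0539). The Axl calls involving macrophages, the 3 Mfge8 calls, the Pros1 call and the Itgav call for CD103- cells passed with each array left out.

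**Figure D4:**
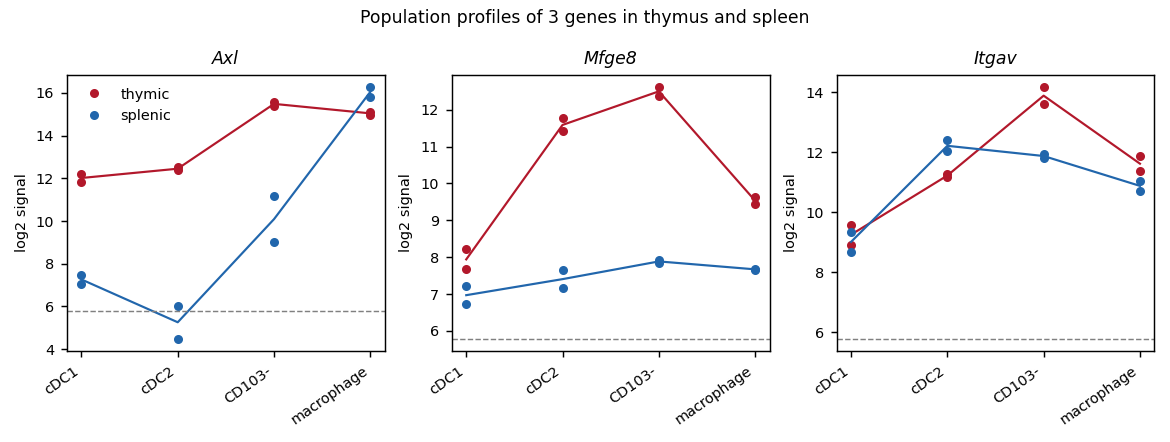
Log2 signal (vertical axis) of Axl, Mfge8 and Itgav across the 4 populations, with points for arrays and lines through the means of thymus (red) and spleen (blue). The Axl lines come closest at macrophages, the Mfge8 lines are closest at cDC1, and the Itgav lines cross between cDC1 and cDC2 and again between cDC2 and CD103- cells.

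The wider engulfment machinery was described with 8 lists of 96 measured genes, none of them a member. Of 12 other bridging molecules and opsonins, 7 were higher and 0 lower in thymic macrophages than in cDC2, and 9 higher and 0 lower in splenic ones. The list's median differences were 2.54 and 3.16. All list counts against cDC2 are to be read beside the shares of all clusters called, 42.9% and 42.5% for thymic and splenic macrophages and 10.3% and 9.02% for CD103- cells. The subunits of C1q, a complement protein that coats dead cells, led in both organs: C1qb was higher by 7.45 ± 0.56 and 11.55 ± 0.56 (limma adjusted p = 4.46e-09 and 2.37e-11). CD103- cells shared this in part: 7 were higher and 0 lower in thymic cells, 6 higher and 1 lower in splenic cells, and C1qb was higher by 4.27 ± 0.56 and 4.16 ± 0.56 (adjusted p = 4.07e-05 and 5.96e-05). Complement component C3 led the thymic CD103- list at 6.30 ± 0.34 (adjusted p = 1.42e-09), and Anxa1, which binds phosphatidylserine, was the gene that was lower in splenic CD103- cells, at -2.15 ± 0.25 (adjusted p = 9.62e-06).

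Among 17 other receptors for dead cells, 10 were higher and 2 lower in thymic macrophages than in cDC2, and 7 higher and 3 lower in splenic ones. Lrp1, a large scavenger receptor that takes up cargo marked by calreticulin, was higher in macrophages by 5.60 ± 0.28 and 5.18 ± 0.28 (limma adjusted p = 2.38e-11 and 7.59e-11) and in CD103- cells by 3.66 ± 0.28 and 3.46 ± 0.28 (7.7e-08 and 1.36e-07). Havcr2 and Havcr1, relatives of Timd4, went the other way. Havcr2, which encodes TIM-3, was lower in thymic macrophages (-9.13 ± 0.28, 1.12e-13) and splenic ones (-5.12 ± 0.28, 9.65e-11). Havcr1, which encodes TIM-1, was lower too (-5.04 or beyond, 3.25e-10, and -3.44 ± 0.34, 1.96e-07). Thymic CD103- cells had 5 receptors higher and 4 lower than cDC2, and splenic ones 5 higher and 2 lower. Cd14, a lipid-binding coreceptor, led both, at 5.90 ± 0.31 and 8.82 ± 0.31 (1.28e-09 and 1.04e-11).

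Of 5 beta chains that can pair with the alpha V chain, Itgb5 was higher in macrophages than in cDC2 by 5.82 ± 0.31 in the thymus and 3.97 ± 0.31 in the spleen (limma adjusted p = 5.58e-11 and 8.43e-09), and Itgb1 in splenic macrophages by 1.13 ± 0.26 (0.0014). In CD103- cells 0 of 5 were called in the thymus and only Itgb1 in the spleen (1.29 ± 0.26, 0.00252). Rac signalling genes were split: of 20, 6 were higher and 7 lower in thymic macrophages, and 7 higher and 6 lower in splenic ones. Elmo2, a relative of Elmo1, was higher by 3.0 ± 0.26 and 1.97 ± 0.26 (2.71e-08 and 5.79e-06), opposite to Elmo1. Dock2 and Dock5, relatives of Dock1, were lower: Dock2 differed by -2.38 ± 0.22 and -2.08 ± 0.22 (5.96e-08 and 3.9e-07) and Dock5 by -3.38 ± 0.26 and -3.56 ± 0.26 (4.38e-09 and 2.74e-09). Thymic CD103- cells had 2 of these genes higher and 3 lower, and splenic ones 1 higher and 4 lower, with Ptk2, the focal adhesion kinase, lower (-1.96 ± 0.33 and -2.99 ± 0.33, 0.000511 and 5.85e-06). The 5 thymic CD103- calls fell to 3 without either array of CD103- cells or of cDC2, and the splenic Itgb1 call was joined by 1 more beta chain without CD103- array 1.

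Gas6 and protein S need vitamin K-dependent carboxylation to bind the lipid. Of 14 genes of TAM ligand maturation, receptor shedding and feedback, 4 were higher and 4 lower in thymic macrophages than in cDC2, and 4 higher and 3 lower in splenic ones, beside 42.9% and 42.5% of all clusters called. Vkorc1, which recycles vitamin K, was higher by 4.89 ± 0.23 and 3.79 ± 0.23 (limma adjusted p = 1.45e-11 and 4.17e-10), and Socs1, a cytokine signalling inhibitor, was lower (-4.03 ± 0.34 and -2.0 ± 0.34, 1.79e-08 and 9.13e-05). CD103- cells had 4 higher and 0 lower in each organ, among them Socs3, by 2.01 ± 0.60 and 3.81 ± 0.60 (0.0399 and 0.000285). Without single arrays the CD103- counts fell to 1 in the thymus (without cDC2 array 1 or CD103- array 2) and to 2 in the spleen (without cDC2 array 2 or either CD103- array).

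Genes that process the swallowed cargo were mostly higher in macrophages and CD103- cells than in cDC2. Of 15, 11 were higher and 4 lower in thymic macrophages, 11 higher and 1 lower in splenic ones, 10 higher and 0 lower in thymic CD103- cells, and 9 higher and 1 lower in splenic CD103- cells. Nr1h3, the sterol sensor LXR alpha, was higher in this order by 7.36 ± 0.32, 7.90 ± 0.32, 5.17 ± 0.32 and 4.26 ± 0.32 (limma adjusted p = 4.84e-12, 2.22e-12, 8e-09 and 5.89e-08). Dnase2, which digests the DNA of engulfed cells in lysosomes, was higher by 7.45 ± 0.25 in thymic macrophages (3.13e-13) and by 3.21 ± 0.25 in thymic CD103- cells (1.16e-07). Of 8 genes of find-me signals, 2 were higher and 3 lower in macrophages of each organ, with Gpr132, a receptor for lysophospholipids, lower (-5.49 ± 0.30 and -5.67 ± 0.30, 6.5e-11 and 5.66e-11). Find-me genes higher in CD103- cells numbered 3 (thymic) and 2 (splenic), with 0 lower; Cx3cr1, the fractalkine receptor, was higher in both (3.19 ± 0.28 and 1.13 ± 0.28, 3.15e-07 and 0.0123). These counts fell to 1 without thymic CD103- array 2, splenic CD103- array 1 or splenic cDC2 array 2, and the 5 splenic macrophage calls fell to 3 without splenic cDC2 array 1 or either macrophage array. Of 5 don't-eat-me genes, 2 were lower in thymic macrophages (Cd24 and Cd47), 3 were higher in splenic ones (Pecam1, Siglec10 and Cd24), and 1 was lower in thymic CD103- cells (Cd24) with 0 called in splenic ones. The thymic macrophage count, 2 of 5, is near the 42.9% of all clusters and is no result about this list.

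The median differences of the lists were set beside those of all clusters given above for the same comparisons. Cargo processing genes had medians of 1.90 and 2.83 in thymic and splenic macrophages and of 1.68 and 0.94 in the CD103- cells, and the bridging molecules had 0.84 and 1.32 in CD103- cells. Other receptors had a median of 2.31 in thymic macrophages but of -0.04 in splenic ones, where more receptors were called higher than lower, and of 0.28 and -0.11 in CD103- cells. Rac signalling lay near 0 throughout, between -0.14 and -0.08. The medians of TAM ligand maturation, find-me signals, beta chains and don't-eat-me genes lay between -0.42 and 0.77, except 1.76 for don't-eat-me genes in splenic macrophages.

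**Figure D5:**
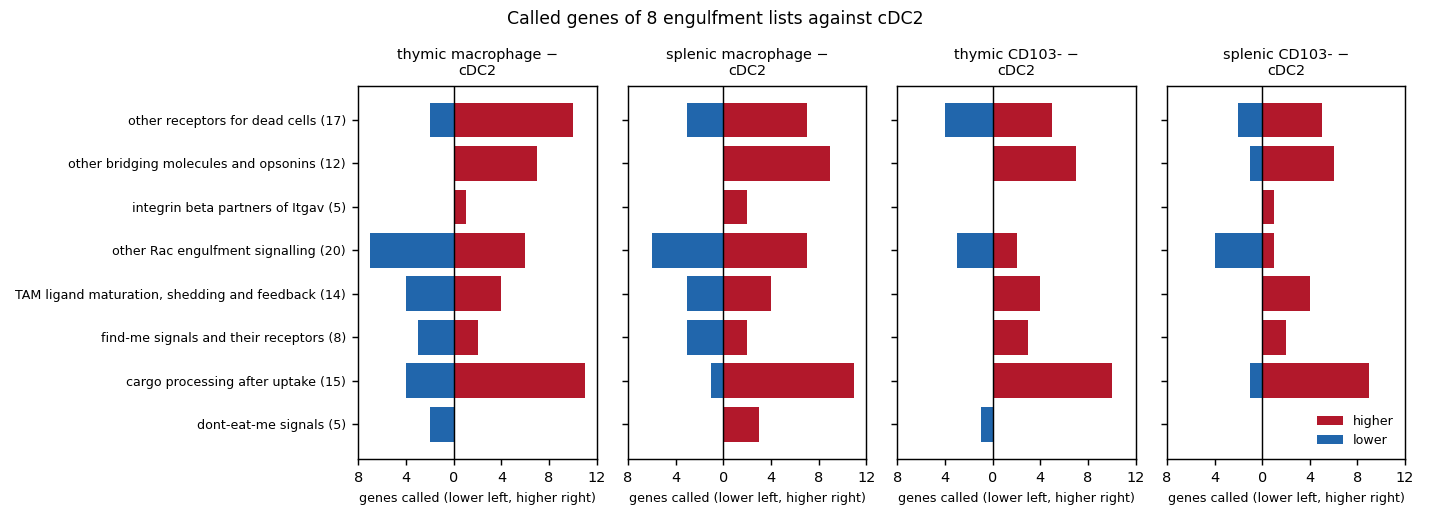
Number of genes called higher (red, right of 0) or lower (blue, left of 0) than cDC2 of the same organ in 8 engulfment lists, with the number of measured genes in parentheses. Bridging molecules and cargo processing lean to the right in all 4 panels, and Rac signalling is split.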

How the data were processed

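The authors deposited log2 signals per transcript cluster, made with the Transcriptome Analysis Console per the submitters' processing notes. Its version, the background correction, the normalization and the genome build are not given in the sources used here. Both deposited tables held the same values (largest difference 0), array medians lay between 5.87 and 5.95, and the values were used unscaled.

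With limma 3.58.1 in R 4.3.3, 8 group means were fitted to 16 arrays with lmFit and eBayes, on 8 residual plus 9.21 prior degrees of freedom. Two-sided p-values of 20 contrasts were adjusted by Benjamini-Hochberg over 23188 clusters, with calls at 0.05. An interval is the fit's 95% interval, and a gene's highest cluster stood for it. Members not called had p above that threshold, which does not show equal levels.

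The 10 members and the lists were chosen with earlier results of these data known. Of 99 list genes, 96 were matched. Members are named whether called or not. Of a list, up to 4 called genes per direction with the largest difference could be named in a contrast the text describes. The 3 genes with the highest Pearson r over the 8 group means are named for each member whose means span 2 or more. Promoters came from RefSeq (GRCr8), and all 10 matched. Alternatives covered weights, arrays, filter, scaling, replicate block, trend and robust, fold threshold, background percentile and single arrays left out. Averaging clusters of a gene changed nothing, as each member had 1. The fit was tested on simulated data. A log2 difference of 1 was found in 17.5% for thymic macrophages minus cDC2 and 17% for macrophages between the organs. For the organ dependence of CD103- cells minus cDC2 it was found in 0%. A log2 difference of 2 was found in 94.1%, 94.1% and 69.9%, in the same order. Up to 6.08% of the simulated calls were false. A platelet marker list is not reported here.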

Additional observations from a re-analysis of the deposited data

Results flagged for a closer look

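The following differences between populations were not the same in thymus and spleen by the interaction term of limma (thymic minus splenic log2 difference, adjusted over all clusters). For macrophages minus cDC2 they were Axl (fitted value -8.20, or -7.67 or beyond with splenic cDC2 set to the background level it lay below, adjusted p = 3.91e-07), Mfge8 (-2.32 ± 0.36, adjusted p = 0.000208) and Itgav (1.73 ± 0.42, adjusted p = 0.0104). For CD103- cells minus cDC2 they were Itgav (3.0 ± 0.42, adjusted p = 0.000256) and Gas6 (-2.35 ± 0.50, adjusted p = 0.00955). For macrophages minus CD103- cells they were Axl (-6.40 ± 0.71, adjusted p = 1.37e-05), Mfge8 (-2.75 ± 0.36, adjusted p = 7.32e-05) and Mertk (-2.04 ± 0.53, adjusted p = 0.0256). This last comparison was added after the levels were seen.

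For cDC2 minus cDC1 they were Mfge8 (3.21 ± 0.36, adjusted p = 1.62e-05), Pros1 (2.25 ± 0.34, adjusted p = 0.000295), Timd4 (1.76 ± 0.38, adjusted p = 0.00761), Mertk (2.33 ± 0.53, adjusted p = 0.0104) and Axl (fitted value 2.44, or at least 1.91 with splenic cDC2 at background, adjusted p = 0.049992). Means below background on both sides leave the sizes for Pros1 and Mertk uncertain. The comparisons share arrays, so these values are not independent of each other. Several of these calls were lost when single arrays were left out, as described above. For Mertk in macrophages minus CD103- cells and Axl in cDC2 minus cDC1, most of the single arrays did so. Groups of 2 arrays allow no check for an outlying array.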

How the results depend on the processing

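Of 200 differences tested for the 10 members, 127 were called, and 0 of these turned their direction under any alternative run. Calls lost and gained were 1 and 1 with array weights, 3 and 4 with only the groups compared, 0 and 2 with a filter on dim probes, 0 and 1 with median centring, 1 and 0 with quantile normalization, and 1 and 1 with trend and robust. With the replicate number as a block 0 were lost and 3 gained (Elmo1 between splenic CD103- cells and cDC1, adjusted p = 0.0164, Dock1 between macrophages of the organs, 0.0411, and the Itgav interaction of macrophages and CD103- cells, 0.0409). Deviations of same-numbered arrays correlated by over 0.1 in 4 of 28 pairs of groups (-0.068 to 0.182), which did not meet the rule for paired arrays, although Elmo1 was higher on array 1 than on array 2 in 8 of 8 groups. The organ dependence of macrophages minus cDC2 had 5 members called instead of 3 with only the groups compared.

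A required change of at least 2-fold removed 50 calls, the largest effect of any setting. It left 5 members in thymic and 4 in splenic macrophages minus cDC2, 3 and 2 in CD103- cells minus cDC2, 6 in thymic CD103- cells minus cDC1, and 4 and 2 in cDC2 minus cDC1. Between the organs it left 2 in cDC1, 5 in CD103- cells and 3 in macrophages, and for the organ dependence 1 in CD103- cells minus cDC2 and 1 in cDC2 minus cDC1. Over all clusters it left 168 to 4438 calls a contrast, 0.15 to 0.44 times the 823 to 10134 without it, and no other setting moved these counts by more than 1.5 times except single arrays left out (lowest ratio 0.57, without thymic CD103- array 2).

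Leaving out single arrays ended 31 of the calls at least once and gained 7. The members called ranged from 3 to 5 in splenic CD103- cells minus cDC2, were 3 each time in splenic cDC2 minus cDC1, and ranged from 1 to 3 and 3 to 5 in the organ dependence of CD103- cells minus cDC2 and of cDC2 minus cDC1. Group means of members below background numbered 15, and 8 or 28 with the 90th or 99th percentile of the olfactory clusters (5.34 or 6.91). Only 2 arrays a group limit the precision, and signals near background bound the size of a difference.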

Other observations

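Genes whose group means ran most like those of each member, out of 12626 genes above background, are given as a description with Pearson's r over 8 groups, which share arrays and processing. Mertk ran with Gpnmb (0.995), a lysosomal glycoprotein, Pla2g2d (0.989), a secreted phospholipase, and Ocrl (0.988), a phosphoinositide phosphatase. Axl ran with App (0.975), Slc7a8 (0.972) and Npr1 (0.971). Gas6 ran with Arhgef12 (0.985), Tmem220 (0.970) and Tmem106a (0.970).

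Pros1 ran with Alox5 (0.990), the 5-lipoxygenase of leukotriene synthesis, F13a1 (0.983), a transglutaminase chain of coagulation factor XIII, and Rasa1 (0.979). Timd4 ran with Eif2b3 (0.966), Snx12 (0.963) and Ggcx (0.962), the carboxylase that modifies Gas6 and protein S. Mfge8 ran with Abl1 (0.979), Ptgfrn (0.975) and Chaf1b (0.971). Itgav ran with Pes1 (0.962), Nt5dc3 (0.954) and Thop1 (0.953). Elmo1 ran with Mbnl3 (0.984), RGD1566093 (0.983) and RGD1564541 (0.976), and Dock1 with Gas7 (0.981), LOC100909609 (0.976) and Prmt10 (0.973). With Spearman's rho over the 16 arrays, 2 of these 27 names came out again, Gas7 and LOC100909609. Among the members, the closest pair was Pros1 with Timd4 (0.92), and Elmo1 ran against Gas6 (-0.65) and Axl (-0.64).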
